A study of Homo sapiens with 6 samples.

Results

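The hyaluronan genes described here are 10 rows of the deposited table of 20851 genes, taken because their gene name equals a listed one. They are the synthases HAS2 and HAS3, the breakdown genes CEMIP, CEMIP2, HYAL1, HYAL2 and HYAL3, the receptors CD44 and HMMR, and the link protein gene HAPLN1. All 10 passed the filter on low counts. They were listed with results of the knockout comparison in view, so their differences between the groups are given as a description without p-values. A375 is an established human melanoma cell line. A375 RIPK4.KO is a subline, clone #1, in which the kinase gene RIPK4 was targeted with CRISPR/Cas9 through a lentiviral guide, and A375 neg is its control, made with a nontargeting guide and called a GFP control in the labels. Both were grown in the same medium with serum and no further treatment is named. The study compared them to learn what the loss of RIPK4 changes in melanoma cells. RNA sequencing covered 3 libraries of each, called control and knockout libraries from here on.

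Hyaluronan is a long, unsulphated sugar polymer of the extracellular matrix. Synthases in the plasma membrane build it from UDP-glucuronic acid and UDP-N-acetylglucosamine and extrude it, cell-surface and secreted proteins cut it into fragments, and lysosomal enzymes finish its breakdown. Cells sense it through receptors, chiefly CD44, and link proteins fasten large proteoglycans to it, which gives the pericellular coat its bulk. In skin tumours this coat is known for its part in adhesion and invasion.

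The libraries held 21882863 to 26694140 counts on named genes. RIPK4 itself fell to 53.7 ± 7.98 normalized counts (SD, n = 3) from 347 ± 32.7 (SD, n = 3; log2 fold change -2.69, SE 0.17, adjusted p = 1.01e-05, edgeR quasi-likelihood test). Of the 9 melanocytic markers, 5 were in the table, and their summed normalized counts were 9490 to 10258 in the controls and 8171 to 8589 in the knockout libraries, nearly all from SOX10. Of the 5, S100B and S100A1 were called lower (log2 fold changes -0.89 and -0.86, SE 0.24 and 0.25, adjusted p = 0.036 and 0.0449, edgeR), and MITF was 1.36-fold lower, under the fold limit (adjusted p = 0.0449, edgeR). PMEL had 3 to 22 raw counts per library, and MLANA, TYR, DCT and PRAME had no row under those names in the table. The 4 fibroblast markers in the table summed to 121 to 150 and 102 to 137 normalized counts, the 2 leukocyte markers to 2.00 to 14.2 and 0 to 6.08, and the 3 endothelial markers to 32.0 to 36.0 and 6.08 to 12.0. The 3 epithelial markers summed to 469.9 to 570.2 in the controls and 141 to 171 in the knockout libraries, almost wholly KRT14, and the part of these differences in the results below was not tested. Knockout replicate 2 stood apart from its group by gene length. Set against the other two knockout libraries, its median log2 difference was -0.12 over the longest 20% of genes and 0.18 over the shortest 20%.

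The sequence just before the start of CEMIP is shown because CEMIP carried the largest difference of the 10 genes. It covers chr15:80779120-80779345 on the plus strand (GRCh38.p14, RefSeq), which is 226 of the 250 bases before the RefSeq start. GENCODE 29 places an exon of CEMIP over the end of this window, so the last 3 bases printed lie in that exon. Capitals mark matches to the TATA box letters TATAAA and to GGGCGG, the latter read as CCGCCC on the other strand.

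CEMIP: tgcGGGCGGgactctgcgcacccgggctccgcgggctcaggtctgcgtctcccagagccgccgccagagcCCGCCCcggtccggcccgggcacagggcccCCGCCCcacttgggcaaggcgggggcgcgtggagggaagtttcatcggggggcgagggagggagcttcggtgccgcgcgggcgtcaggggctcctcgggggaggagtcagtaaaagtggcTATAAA

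Matches were sought on both strands in the 250 bases before each start. The TATA box letters began 30 bases before the RefSeq start of CEMIP, ran into the GENCODE exon, and occurs in 10.7% of 35116 such windows. GGGCGG, a GC box, began 247, 180 and 150 bases before it and occurs in 42.6% of windows. The window of CEMIP held 28 CpG dinucleotides at 74.4% G and C, against a median of 58.0% over all windows. The corresponding window of HAPLN1 held 5 CpG at 50.8%, with neither box and with ACAAAG, a SOX motif found in 13.7% of windows, at 102 bases before the start. That of CEMIP2 held 25 CpG at 71.6% and 1 GC box, at 209 bases. All 250 bases of the windows of HAPLN1 and CEMIP2 are annotated as exon in GENCODE 29, against 27 for CEMIP, so the windows are not alike in kind. TGANTCA (AP-1) and GGAATG (TEAD), found in 6.57% and 11.9% of windows, were not matched in these 3 windows. These letters are a description of the reference sequence and not of binding.

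A gene is called here at an adjusted p under 0.05 with a fold change of at least 1.5, in edgeR's quasi-likelihood test over all 14443 genes that passed the filter. By that rule 4 of the 10 hyaluronan genes were called, 3 lower (CEMIP, CEMIP2 and HAPLN1) and 1 higher (HAS2) in the knockout libraries. Over all genes tested 9.04% were called, 4.65% lower and 4.39% higher. For 6 of the 10, which are these 4 with HAS3 and CD44, the normalized counts of the groups did not overlap, where 36.5% of all genes had no overlap. The same 6 had an adjusted p under 0.05, against 16.6% of all genes. The median log2 fold change of the 10 was -0.08, and -0.0047 over all genes. As the genes were listed on this comparison, nothing is read from these shares.

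**Figure D1:**
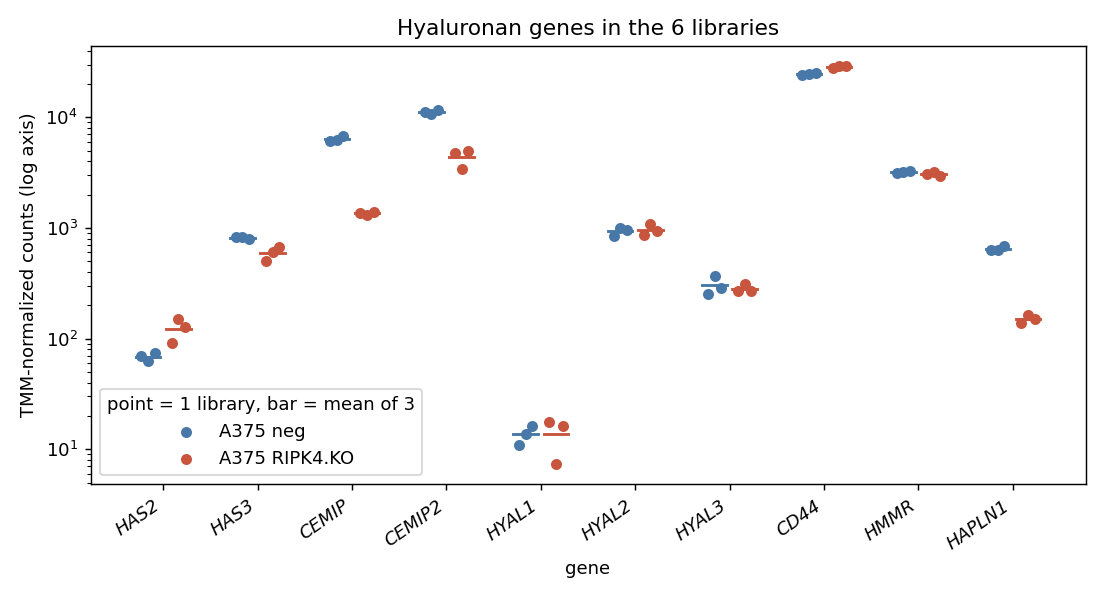
TMM-normalized counts (log axis) of the 10 hyaluronan genes in each of the 3 A375 neg and 3 A375 RIPK4.KO libraries; a point is 1 library and a bar the mean of 3. CEMIP, CEMIP2, HAPLN1 and HAS3 lie lower and HAS2 and CD44 higher in every A375 RIPK4.KO library, and the groups overlap for HYAL1, HYAL2, HYAL3 and HMMR.

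The synthases differed in opposite directions and stood at very different levels. HAS2, the synthase of the longest chains and an essential gene in the embryo, lies on chromosome 8. Its raw counts were 70, 68 and 78 in control replicates 1 to 3 and 84, 144 and 126 in knockout replicates 1 to 3. All 3 knockout libraries were above all 3 controls, by a small margin in replicate 1. The normalized counts were 68.9 ± 5.73 and 123 ± 29.5 (SD, n = 3), which is 0.84 higher on the log2 scale (SE 0.22). It ran from 0.68 without knockout replicate 2 to 1.01 without knockout replicate 1, and HAS2 was called with only 1 of the 6 libraries left out, knockout replicate 1. HAS2-AS1, the antisense transcript whose exons share 201 bases with HAS2, had 9, 9 and 14 raw counts in the controls and 22, 21 and 18 in the knockout libraries. Its groups did not overlap either, and it did not pass the test (log2 fold change 1.06, SE 0.37, adjusted p = 0.0865, edgeR). The libraries are strand-specific, but the strand setting of the counting is not given in the sources used here, so reads of the pair may not be fully separated.

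HAS3, which makes shorter chains, is on chromosome 16 from 69083484 to 69118719. It had 828, 893 and 835 raw counts in the controls and 456, 578 and 657 in the knockout libraries, so every knockout library was lower. The normalized counts were 814 ± 19.7 and 589 ± 84.7 (SD, n = 3). The log2 fold change of -0.47 (SE 0.11) is 1.38-fold lower and short of the 1.5-fold limit. The knockout libraries spread more than the controls, and over the 6 fits that lack a library the value ran from -0.56 to -0.36. On the opposite strand CHTF8 shares 365 exon bases with HAS3, 6.90% of the HAS3 exons. The same limit on separating reads therefore holds for this pair and for the synthase shares given next. CHTF8 itself had no row under that name in the table.

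Levels can be compared between genes only per length, so normalized counts were scaled to CPM and divided by the merged exon length of each gene in kilobases. On that scale HAS3 stood at 6.27 ± 0.15 in the controls and 4.54 ± 0.65 in the knockout libraries, and HAS2 at 0.67 ± 0.06 and 1.20 ± 0.29 (SD, n = 3). HAS3 therefore made up 90.3% ± 0.89 of the summed synthase level in the controls and 79.2% ± 2.76 in the knockout libraries. The 3 control shares lay between 89.5% and 91.2% and the knockout shares between 76.1% and 81.1%. The sum of both synthases was 6.93 ± 0.12 and 5.73 ± 0.88, that is, 1.21-fold lower in the knockout libraries, with all knockout libraries (4.73 to 6.37) below all controls (6.81 to 7.05).

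Among the breakdown genes, CEMIP and its paralogue CEMIP2 were both lower in the knockout libraries. CEMIP, a hyaluronan-binding protein needed for depolymerization in skin fibroblasts and also named KIAA1199, lies on chromosome 15 from 80779370 to 80951771. Its raw counts were 6118, 6719 and 7102 in the controls and 1249, 1256 and 1371 in the knockout libraries. The lowest control was far above the highest knockout library, and replicates of a group differed little. The normalized counts were 6346 ± 336 and 1355 ± 40.4 (SD, n = 3), 4.68-fold lower in the knockout libraries (log2 fold change -2.23, SE 0.07). CEMIP ranked 147th from the lowest log2 fold change among all genes tested. Over the 6 fits that lack a library it kept to -2.25 to -2.18. Such fits reuse the comparison on which the gene was listed, so they describe the spread and are no test of it.

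CEMIP2, also named TMEM2, is the paralogue of CEMIP that sits in the plasma membrane and is reported to cut hyaluronan at the cell surface. Its own activity was not measured here. It lies on chromosome 9 from 71683366 to 71769466. Its raw counts were 11209, 11647 and 12173 in the controls and 4390, 3258 and 4847 in the knockout libraries. Every knockout library was below every control, with knockout replicate 2 the lowest. The normalized counts were 11158 ± 407 and 4371 ± 842 (SD, n = 3), 2.55-fold lower (log2 fold change -1.35, SE 0.13). knockout replicate 2 differed by -0.51 on the log2 scale from the mean of the other two, and the merged exons of CEMIP2, 9625 bases, put it at the 86.4th percentile of length. The still longer CD44 (87.9th percentile) differed by 0.02 in that library and CEMIP (75.8th) by -0.07, and the part of length was not tested. Over the 6 fits that lack a library the log2 fold change of CEMIP2 ran from -1.44 to -1.20, the latter without knockout replicate 2.

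The hyaluronidase genes HYAL1, HYAL2 and HYAL3 lie side by side on chromosome 3 and gave no such difference. HYAL2, an enzyme anchored to the cell surface that makes intermediate fragments (50317808 to 50322745), had 845, 1085 and 1005 raw counts in the controls and 796, 1048 and 918 in the knockout libraries. The ranges overlapped, at 932 ± 79.3 and 965 ± 116 normalized counts (SD, n = 3; log2 fold change 0.05, SE 0.10). HYAL3, whose own enzyme activity is unsettled (50292832 to 50299405), had 251, 401 and 302 raw counts in the controls and 245, 296 and 264 in the knockout libraries. Its log2 fold change of -0.10 (SE 0.16) ran from -0.22 to 0.07 with 1 library left out, so it had no stable sign. HYAL1, the lysosomal enzyme that is missing in a form of mucopolysaccharidosis (50299893 to 50312381), was at the lower end of what can be counted, with 11, 15 and 17 raw counts in the controls and 16, 7 and 16 in the knockout libraries. Its log2 fold change was -0.00051 with an SE of 0.42, an error that takes in 1.5-fold changes in both directions within 2 SE, so such a change was not detectable at this depth. In the annotation, 248 exon bases of HYAL3, 12.2% of the total, are shared with NAA80 on the same strand and 43 with IFRD2, and 509 of HYAL2, 11.2%, with TUSC2. Reads there cannot be assigned to one gene by position. NAA80, IFRD2 and TUSC2 did not pass the test (log2 fold changes -0.35, 0.25 and -0.14, adjusted p = 0.246, 0.103 and 0.337, edgeR).

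Per length, CEMIP2 was at 47.2 ± 1.72 in the controls and 18.5 ± 3.56 in the knockout libraries, and CEMIP at 33.9 ± 1.79 and 7.24 ± 0.22 (SD, n = 3). HYAL2 was at 8.35 ± 0.71 and 8.64 ± 1.04, HYAL3 at 6.06 ± 1.22 and 5.64 ± 0.48, and HYAL1 at 0.18 ± 0.03 and 0.18 ± 0.07. The breakdown genes of the controls were thus dominated by the CEMIP pair. Together CEMIP and CEMIP2 held 84.8% ± 1.93 of the summed level of the 5 breakdown genes in the controls and 63.8% ± 5.82 in the knockout libraries. The share of HYAL2 was 8.73% ± 0.65 and 21.7% ± 3.91, with no overlap, although the level of HYAL2 itself overlapped between the groups. The sum over the 5 genes was 95.7 ± 3.27 in the controls and 40.2 ± 2.42 in the knockout libraries, 2.38-fold lower. CEMIP and CEMIP2 summed to 3.15-fold less, and the summed HYAL genes differed by 1.01-fold. Within the pair, CEMIP made up 40.8% to 42.4% in the control libraries and 26.3% to 32.7% in the knockout libraries, so it was reduced by more than its paralogue.

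**Figure D2:**
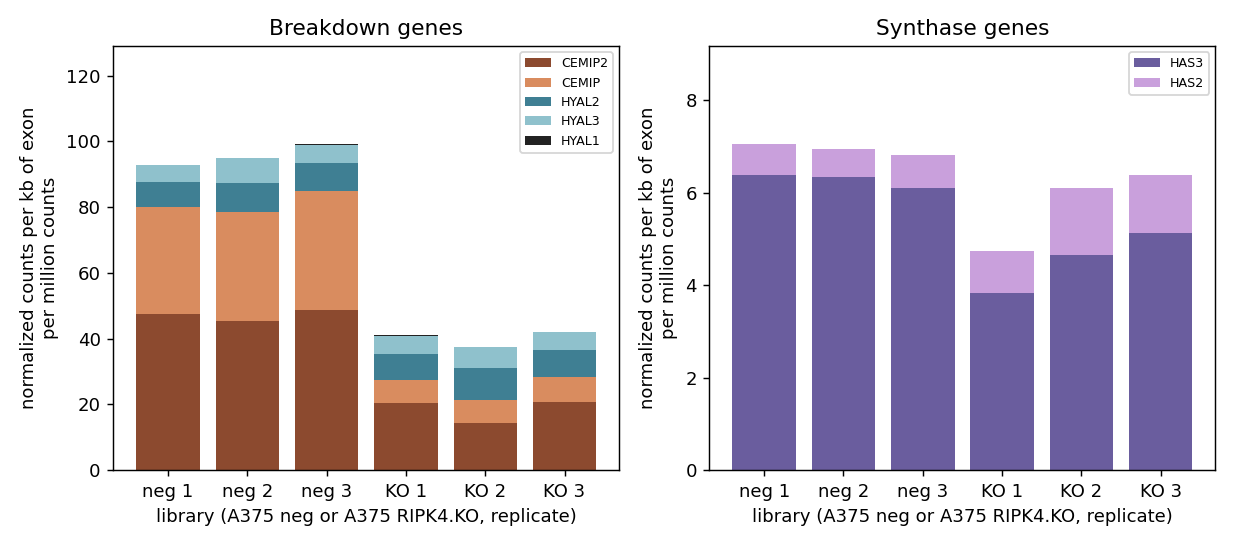
Stacked bars of the level per library, as normalized CPM per kilobase of exon, for the 5 breakdown genes (left) and the 2 synthases (right) in A375 neg (neg) and A375 RIPK4.KO (KO) replicates 1 to 3. The summed breakdown level is 92.8 to 99.2 in A375 neg and 37.5 to 42.1 in A375 RIPK4.KO, while the blue HYAL parts keep a like height.

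Both receptors were abundant, and neither differed by 1.5-fold. CD44, the main surface receptor for hyaluronan, is on chromosome 11 from 35139171 to 35232402. It had 24302, 26904 and 26476 raw counts in the controls and 25632, 27785 and 28768 in the knockout libraries. The raw counts overlapped, but the normalized counts, 24725 ± 402 and 28729 ± 622 (SD, n = 3), did not. CD44 was 1.16-fold higher in the knockout libraries (log2 fold change 0.22, SE 0.06, and 0.20 to 0.24 over those 6 fits). Counts per gene do not separate the splice variants of CD44. HMMR, a receptor also named RHAMM that works at the mitotic spindle as well, is on chromosome 5 from 163460632 to 163491941. It had 3163, 3459 and 3441 raw counts in the controls and 2791, 3092 and 2917 in the knockout libraries. After normalization, at 3203 ± 51.7 and 3079 ± 137 (SD, n = 3), the groups overlapped, and the log2 fold change was -0.06 (SE 0.06).

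Transcripts of HMMR rise in cells that approach mitosis, so 20 mitotic genes were set beside it. None was called by edgeR or by DESeq2. At an unadjusted p under 0.05 in edgeR's test 8 were higher and 0 lower, where 15.1% of all genes were higher and 14.9% lower. An adjusted p under 0.05 was reached by 4 of the 20, all higher, against 16.6% of all genes in either direction and 8.4% higher. Their median log2 fold change was 0.14, against -0.0047 for all genes. The most counted, TOP2A, CENPF and MKI67, which code for a topoisomerase, a kinetochore protein and a proliferation marker, had log2 fold changes of 0.02 (SE 0.07), 0.16 (SE 0.07) and -0.08 (SE 0.09), and none passed the test (adjusted p = 0.881, 0.199 and 0.6, edgeR).

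HAPLN1, the link protein that locks proteoglycans onto hyaluronan, is on chromosome 5 from 83637805 to 83720855. Its raw counts were 630, 685 and 726 in the controls and 126, 158 and 149 in the knockout libraries, so the groups were far apart and even within. The normalized counts were 649.7 ± 33.3 and 151 ± 13.6 (SD, n = 3), 4.29-fold lower in the knockout libraries (log2 fold change -2.10, SE 0.11). It ranked 167th from the lowest, 20 places after CEMIP. Over the 6 fits that lack a library its log2 fold change ran from -2.16 to -2.04. HAPLN3, a second link protein gene, did not pass the test, with 229 ± 17.9 and 237 ± 8.01 normalized counts (SD, n = 3; log2 fold change 0.05, SE 0.12, adjusted p = 0.838, edgeR).

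The order of the 10 genes by level per length was CD44, CEMIP2, CEMIP, HMMR, HYAL2, HAS3, HYAL3, HAPLN1, HAS2 and HYAL1 in the controls. CD44 was at 100.6 ± 1.63 and above 97.5% of the tested genes with a known length, and HYAL1 above 6.12%. CEMIP and HMMR (33.9 and 33.1) did not differ beyond the spread of their libraries, and neither did HAS3 and HYAL3. In A375 RIPK4.KO the order was CD44, HMMR, CEMIP2, HYAL2, CEMIP, HYAL3, HAS3, HAS2, HAPLN1 and HYAL1, where only HAS2 and HAPLN1 overlapped as neighbours. CEMIP went from above 90.2% of tested genes to above 60.6%, and HAPLN1 from 45.3% to 21.3%. CEMIP2 went from 93.3% to 81.1%, and HMMR stood at 89.9% and 89.2%.

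A further 49 genes of hyaluronan biology outside the 10 were listed by role: supply of the sugar precursors, synthesis, breakdown, receptors and uptake, binding in the matrix, and the adaptors and splicing of CD44. Of these 33 were tested, 7 had too few counts and 9 had no row under that name in the table. By edgeR's test 5 of the 33 were called, 2 higher and 3 lower, where 9.04% of all genes were called. The median log2 fold change of the 33 was 0.08. With an adjusted p under 0.05 and no fold limit there were 9, 4 higher and 5 lower, where 16.6% of all genes reached that limit. Called genes fell into 4 roles, with 1 of 10 precursor genes, 1 of 2 tested receptors, 2 of 10 matrix binders and 1 of 6 adaptors. Of the 3 other breakdown genes 0 were called by edgeR or DESeq2, and 0 had an unadjusted p under 0.05 in edgeR's test, where 30% of all genes did, a share that 3 genes are too few to be read against.

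**Figure D3:**
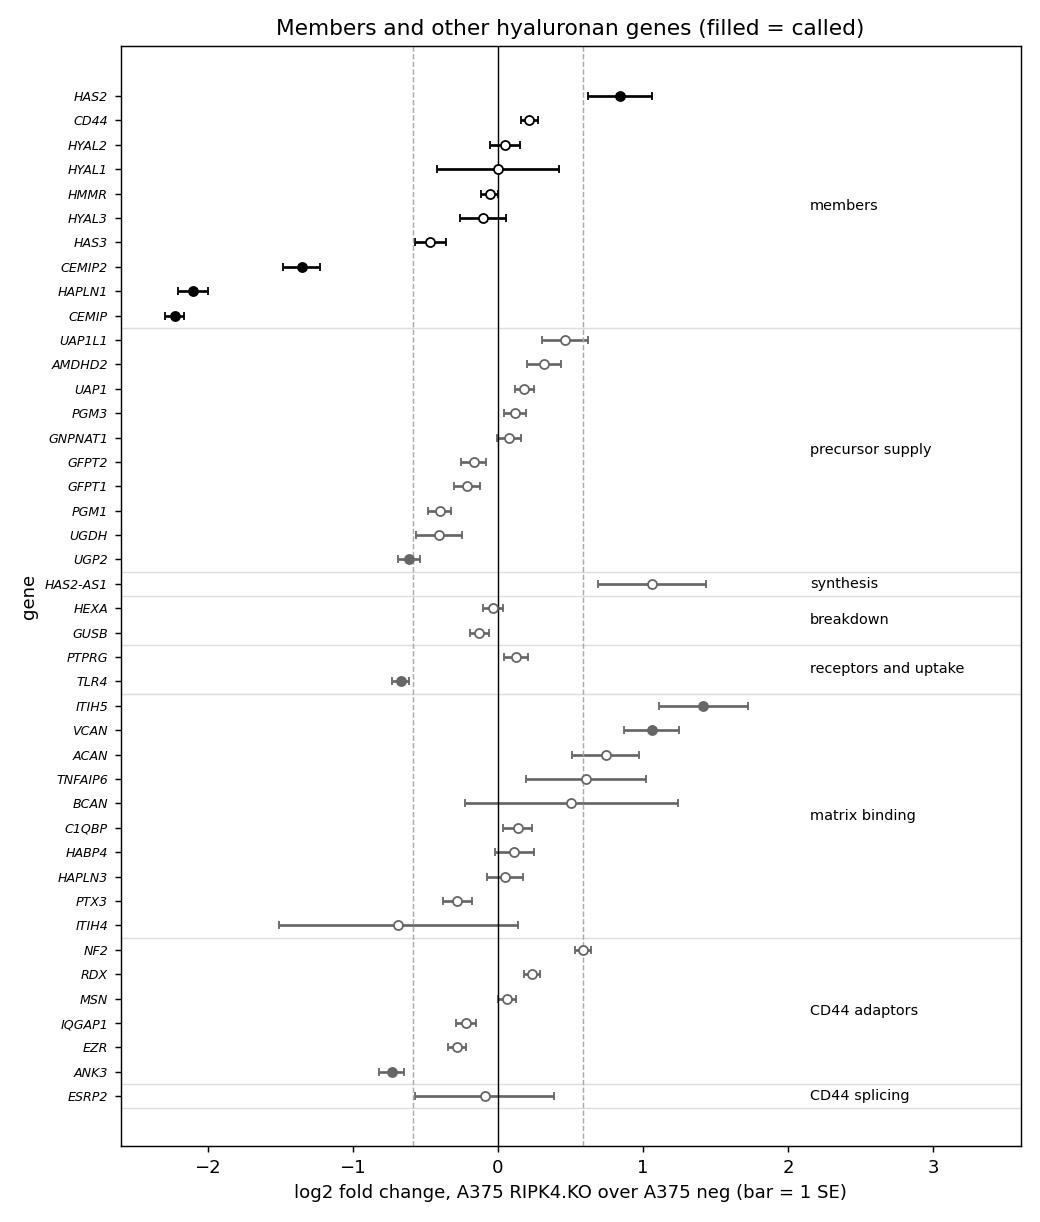
Log2 fold change of A375 RIPK4.KO over A375 neg with its SE (bar) for the 10 members (black) and other hyaluronan genes tested (grey), grouped by role. Filled points were called, and dashed lines mark 1.5-fold; CEMIP, HAPLN1 and CEMIP2 lie farthest to the left, and ITIH5, VCAN and HAS2 are the called genes on the right.

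The matrix binders called higher were VCAN and ITIH5. VCAN, the gene of versican, a large proteoglycan whose head binds hyaluronan, had 66, 83 and 78 raw counts in the controls and 160, 118 and 151 in the knockout libraries. The groups were apart, at 72.1 ± 5.46 and 150.4 ± 25.97 normalized counts (SD, n = 3; log2 fold change 1.06, SE 0.19, adjusted p = 0.00509, edgeR). ITIH5, a heavy chain of the inter-alpha-trypsin inhibitor family whose heavy chains can be bound to hyaluronan, rose from 19.6 ± 6.11 to 52.2 ± 8.77 normalized counts (SD, n = 3; log2 fold change 1.41, SE 0.31, adjusted p = 0.0131, edgeR). It was not past the threshold without control replicate 2 (adjusted p = 0.0582), without control replicate 3 (adjusted p = 0.0525) or without knockout replicate 3 (adjusted p = 0.0608). C1QBP, a mostly mitochondrial protein that can bind hyaluronan, had the most counts of this role and did not pass (log2 fold change 0.14, SE 0.10, adjusted p = 0.401, edgeR).

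The genes called lower were UGP2, TLR4 and ANK3. UGP2 makes UDP-glucose, from which UDP-glucuronic acid is formed, and went from 2806 ± 154 to 1833 ± 149.6 normalized counts (SD, n = 3). Its log2 fold change of -0.61 (SE 0.08, adjusted p = 0.000615, edgeR) was short of 1.5-fold without knockout replicate 1 (-0.57) and also when knockout replicate 3 was left out (-0.58). UAP1, which makes UDP-N-acetylglucosamine and had the most counts of the precursor genes, did not pass (log2 fold change 0.18, SE 0.06, adjusted p = 0.0865, edgeR). TLR4, an innate immune receptor that also responds to hyaluronan fragments, fell from 3337 ± 150.5 to 2095 ± 59.2 normalized counts (SD, n = 3; log2 fold change -0.67, SE 0.06, adjusted p = 0.0001, edgeR). ANK3, an ankyrin of the membrane skeleton to which CD44 can be tied, fell from 633 ± 35.5 to 380.4 ± 14.3 (SD, n = 3; log2 fold change -0.73, SE 0.08, adjusted p = 0.00041, edgeR).

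Other adaptors moved less. NF2, the gene of merlin, was 1.498-fold higher, just under the limit (log2 fold change 0.58, SE 0.05, adjusted p = 0.000125, edgeR), and was called by DESeq2. MSN, with the most counts of the adaptors, had a log2 fold change of 0.06 (SE 0.06, adjusted p = 0.549, edgeR). ESRP2, a splicing factor of CD44, had 15.7 ± 4.57 and 14.7 ± 7.37 normalized counts (SD, n = 3) and gave no precise value (log2 fold change -0.09, SE 0.48). HYAL4, too rare to test, had 2, 4 and 4 raw counts in the controls and 0 in every knockout library, where up to 3 counts, 0.122 to 0.137 CPM, could go unseen by counting error alone.

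The genes next to the hyaluronan genes were examined after the results above were known, within 500 kb of each. Of 58 distinct tested neighbours 8 were called (13.8%), 2 higher and 6 lower, beside 9.04% of all genes. Near CEMIP 3 of 5 tested neighbours were called, all lower. The other 5 called genes lay beside HAPLN1 (1 of 3 tested), CD44 (1 of 7) and the HYAL genes (3 of the 25 to 27 tested around each, the other HYAL genes included). GDA, 345 kb from CEMIP2, had an adjusted p of 0.00534 (edgeR) at a log2 fold change of -0.47, under the fold limit.

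ARNT2, a transcription factor gene at 80404382 to 80597933 and 181 kb before CEMIP, had 3609, 3886 and 3651 normalized counts in the controls and 654, 678 and 654 in the knockout libraries. As for CEMIP, the groups were far apart (log2 fold change -2.49, SE 0.06, adjusted p = 7.46e-08, edgeR). ABHD17C, a depalmitoylase gene 23.7 kb before CEMIP, fell from 2196 ± 279 to 979.6 ± 88.4 normalized counts (SD, n = 3; log2 fold change -1.16, SE 0.10, adjusted p = 9.05e-05, edgeR). IL16, a cytokine gene 231 kb after CEMIP, fell from 28.1 ± 5.29 to 2.78 ± 2.16 normalized counts (SD, n = 3), a level near the limit of counting (log2 fold change -3.27, SE 0.52, adjusted p = 0.00249, edgeR). Between CEMIP and IL16, MESD and TLNRD1 did not pass the test (log2 fold changes 0.08, SE 0.06, adjusted p = 0.384, and 0.09, SE 0.08, adjusted p = 0.471, edgeR). MESD shares 224 exon bases with the end of CEMIP on the other strand, and its normalized counts were 1697 to 1741 in the controls and 1787 to 1842 in the knockout libraries.

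Beside HAPLN1 the direction was the reverse. Its nearest tested neighbour, 55.5 kb away, is VCAN, which rose (above) while HAPLN1 was lower, and XRCC4 and EDIL3 on either side had log2 fold changes of 0.06 (SE 0.11) and 0.06 (SE 0.32). Around the HYAL genes SEMA3B, SEMA3F and C3orf18 fell (log2 fold changes -0.73, -0.995 and -0.90, adjusted p = 7.55e-05, 0.000878 and 0.0252, edgeR). FJX1, near CD44, rose by 0.72 (adjusted p = 0.000153, edgeR).

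All knockout libraries stem from 1 clone, so the loss of RIPK4 and other differences between this clone and the control cells cannot be told apart for any of these genes. In bulk RNA, fewer cells that express a gene and less RNA per cell cannot be told apart either. The study calls the libraries of a group independent biological replicates. The p-values set the difference of the groups against the spread between these libraries and say nothing on the spread between clones.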

How the data were processed

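Poly(A) RNA of 3 A375 neg and 3 A375 RIPK4.KO libraries was sequenced on a NovaSeq with strand-specific libraries. The submitters' processing notes name cutadapt, FastQC, HISAT2, HTSeq, DESeq2 and GRCh38.p13 without roles. The authors deposited 1 table of raw counts per gene, beside normalized counts, a signal scaled by 1 size factor per library. The table also holds the authors' own fold ratio, its log2 value with a standard error, a Wald score and p-values, none of which was used. The test was edgeR 4.0.16 under R 4.3.3, on the raw counts (filterByExpr, TMM, quasi-likelihood test, Benjamini-Hochberg adjustment over 14443 genes). Normalized counts are raw counts over each TMM-scaled library size relative to the mean, and an SE is the log2 fold change divided by the square root of F. Gene lengths are merged exons of GENCODE 29, which gave a length for 13336 tested genes, and positions and promoters come from RefSeq (GRCh38.p14), with a promoter for 9 of the 10 genes. The table's exon overlapped the RefSeq gene for 10 of 10. Named were the 10 genes, RIPK4 and called genes of the 2 further lists. Also named was the most counted gene of each role (3 for mitosis) where reported. NF2, HAPLN3, HYAL4, BCAN, ITIH4, TNFAIP6 and genes near or overlapping the 10 were named after their values were seen. Results for 1 further listed gene are not reported here. The members and lists were chosen with earlier results of these data known. The steps were tested on simulated counts. Alternatives were DESeq2 1.42.0, other scaling, filters and thresholds, a replicate block, and each library left out. Figures were drawn with matplotlib 3.10.9.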

Additional observations from a re-analysis of the deposited data

How the results depend on the processing

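The count of called hyaluronan genes was 4 with all 6 libraries, in DESeq2 as in every other scaling and filter tried, 6 with no limit on the fold change, and 3 to 4 with 1 library left out, where HAS2 was lost without any library but A375 RIPK4.KO replicate 1. For the 33 other hyaluronan genes the count of 5 became 9 with no limit on the fold change and 3 without A375 RIPK4.KO replicate 3, and was 3 to 6 over all fits with 1 library left out. For the mitotic genes the count of 0 became 4 with no limit on the fold change and stayed 0 to 0 with 1 library left out. Of all genes tested 1306 were called, 2403 with no limit on the fold change, and 1059 to 1336 with 1 library left out. The log2 fold change of RIPK4 ran from -2.80 to -2.59 with 1 library left out. The share of CEMIP and CEMIP2 in the breakdown genes of A375 neg, 84.8%, was 86.8% with the longest coding transcript as length, an alternative chosen after seeing the data, and 84.0% to 85.8% with 1 library left out. Lengths from merged RefSeq exons or from the deposited table were not run, since the tables used here give no full exon sets. Same-numbered libraries shared only a number (correlations of their deviations 0.08, 0.04 and -0.01 across genes). With the replicate number as a block 1266 genes, 4 hyaluronan genes, 5 of the others and 0 mitotic genes were called, and RIPK4 was at -2.69. Among the hyaluronan genes tested, depth limits HYAL1, HAS2-AS1, ESRP2, BCAN, ITIH4 and TNFAIP6, with under 25 raw counts in each library.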
